A study of Homo sapiens with 8 samples.

Results

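The annexin family was followed through RNA sequencing of PC9, a human lung adenocarcinoma line with an activating EGFR mutation, and of PC9-BrM3, its brain metastatic subline. Its 10 members, ANXA1 to ANXA7, ANXA9, ANXA10 and ANXA11, were taken by symbol from the 63677 Ensembl gene IDs of the count tables. The family was chosen on ANXA1, which is lower in PC9-BrM3 than in PC9 and higher after HSF1 knockdown. ANXA1 is therefore described without a test, and the other 9 members entered by name. The 8 libraries form 4 groups of 2. The shHSF1 cells are PC9-BrM3 transduced with lentiviral Tet-pLKO-shHSF1 (clone 7480), and the shNTC cells are PC9-BrM3 transduced with Tet-pLKO-shNTC, a non-target hairpin. Both were selected in puromycin for 5 days and given doxycycline at 500 ng/mL for 48 h, so the hairpin alone separates them by label. PC9-BrM3 and PC9 parental cells were not transduced and grew for 48 h before harvest. All 4 groups were kept in RPMI with serum, and HSF1 was targeted with 1 hairpin only.

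Annexins bind negatively charged phospholipids when calcium rises, through a conserved core of repeats that follows a variable N-terminal tail. The tail sets the partners: EF-hand proteins of the S100 family for ANXA1 and ANXA2, and the calcium sensors PDCD6 and sorcin for ANXA7 and ANXA11. The family is known for membrane repair, vesicle traffic, capture of plasminogen at the cell surface and, for ANXA1, glucocorticoid-linked damping of inflammation through formyl peptide receptors.

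The promoter windows of 4 members are shown, chosen for the size of their differences. ANXA1 and ANXA10 had the largest in the subline comparison. ANXA3 and ANXA2 had the largest among the other members that were higher after knockdown. Each window runs 5′ to 3′ on the strand of the gene, from 250 bases before the RefSeq transcript start to 50 after it, in GRCh38.p14. They lie at chr9:73151615-73151914 (plus strand, ANXA1), chr4:168092287-168092586 (plus strand, ANXA10), chr15:60397937-60398236 (minus strand, ANXA2) and chr4:78551520-78551819 (plus strand, ANXA3). Capitals mark TATAAA, and in ANXA2 also TGAGTCA, a match to the AP-1 motif TGANTCA.
ANXA1: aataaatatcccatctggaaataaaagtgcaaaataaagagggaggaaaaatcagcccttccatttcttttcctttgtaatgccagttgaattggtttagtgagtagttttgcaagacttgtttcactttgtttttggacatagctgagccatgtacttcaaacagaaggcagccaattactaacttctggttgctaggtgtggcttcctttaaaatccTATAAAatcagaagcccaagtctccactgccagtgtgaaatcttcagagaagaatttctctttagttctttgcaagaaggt
ANXA10: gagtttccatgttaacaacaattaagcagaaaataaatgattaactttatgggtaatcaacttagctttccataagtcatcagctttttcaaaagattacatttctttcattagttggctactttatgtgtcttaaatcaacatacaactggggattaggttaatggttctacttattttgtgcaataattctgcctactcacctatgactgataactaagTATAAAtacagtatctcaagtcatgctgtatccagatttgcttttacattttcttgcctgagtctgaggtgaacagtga
ANXA2: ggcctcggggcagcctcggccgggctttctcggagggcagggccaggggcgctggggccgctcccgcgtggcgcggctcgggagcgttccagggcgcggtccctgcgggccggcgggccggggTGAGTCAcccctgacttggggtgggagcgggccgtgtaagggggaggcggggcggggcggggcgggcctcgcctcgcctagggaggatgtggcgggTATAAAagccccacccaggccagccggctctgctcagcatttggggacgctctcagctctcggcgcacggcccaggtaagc
ANXA3: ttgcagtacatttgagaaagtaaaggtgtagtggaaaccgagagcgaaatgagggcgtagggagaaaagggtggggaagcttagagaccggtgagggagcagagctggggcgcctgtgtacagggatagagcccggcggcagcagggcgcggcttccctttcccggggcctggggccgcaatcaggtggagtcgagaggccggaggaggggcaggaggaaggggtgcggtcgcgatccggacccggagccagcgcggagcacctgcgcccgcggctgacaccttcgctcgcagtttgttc

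The ANXA1 window has a GC content of 37.7% and 0 CpG dinucleotides, and the ANXA10 window 32.7% and 0. The median of 35116 RefSeq windows of the same length is 58.7% GC with 14 CpG, and 3.96% of them hold 0 CpG. ANXA2 and ANXA3 stand above that median, with 76.0% GC and 32 CpG for ANXA2 and 64.7% GC and 25 CpG for ANXA3. The remaining member windows run from 51.7% GC (ANXA11) to 78.0% GC (ANXA4), and from 5 CpG (ANXA9) to 44 CpG (ANXA4). The 4 windows shown were picked by the differences, and ANXA1 was also higher after knockdown. A link between window content and direction was not tested. TATAAA, searched on both strands, begins 31 bases before the start in ANXA1 and ANXA2 and 29 bases before it in ANXA10. It was found in 4 of the 14 windows that RefSeq gives for the 10 members, and in 11.5% of all windows. The heat shock element core, searched as GAANNTTC and as TTCNNGAA, was in 0 and 1 of the 14 windows (that 1 in ANXA11), against 6.77% and 7.74% of all. The glucocorticoid receptor motif AGAACA was in 2 windows, both of ANXA11, against 14.8% of all, and TGANTCA was in the ANXA2 window alone, against 7.71% of all.

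Libraries held 33550140 to 56715336 gene-assigned counts, so that 3 counts, the limit that a count of 0 allows, stand for 0.0529 to 0.0894 CPM (counts scaled to library size). Levels are CPM on library sizes TMM-scaled over all 8 libraries, which corrects for a few genes taking up a library. HSF1, the targeted gene, had 15.7 and 13.3 CPM in shHSF1, against 180 and 182 CPM in shNTC (log2 -3.61 ± 0.08, SE; edgeR adjusted p = 2.66e-08). It had 54.8 and 51.9 CPM in PC9-BrM3 and 47.0 and 50.4 CPM in PC9 parental. Epithelial markers summed to 3273 to 7008 CPM per library, and the lung markers NKX2-1, NAPSA and SFTPB to 0.545 to 16.2 CPM, with NKX2-1 at 0 to 0.193 CPM. Leukocyte markers summed to 1.02 to 5.87 CPM with PTPRC at 0 to 0.0779 CPM, fibroblast markers to 0.0209 to 0.0888 CPM with DCN at 0, and the endothelial sum of 19.2 to 56.0 CPM was almost all CDH5, with PECAM1 at 0. The brain sum of 94.6 to 162 CPM was almost all MBP, with GFAP at 0 to 0.386 CPM and RBFOX3 at 0 to 0.0188 CPM.

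The untransduced libraries were run on lane 7 and the transduced on lane 1, so differences were tested within a lane only. The PC9-BrM3 pair differed far more than the other pairs: the chi-square of their counts over genes per degree of freedom was 335, against 27.7 for PC9 parental, 26.6 for shNTC and 11.98 for shHSF1. Leaving out PC9-BrM3 replicate 1 raised the genes called in the subline comparison to 9228 (51.1% of those tested), and leaving out replicate 2 to 5594 (30.8%). It was 402 (2.23%) without PC9 parental replicate 1 and 479 (2.64%) without replicate 2. With 1 library left in a group, that library is assumed to vary like the other group. Whether replicates came from separate cultures is not in the labels, and the spread behind each p-value may be technical. In bulk RNA, fewer cells with a transcript and less transcript per cell cannot be told apart.

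In the knockdown comparison 6 of the 9 members other than ANXA1 passed an edgeR adjusted p of 0.05: ANXA2, ANXA3 and ANXA5 rose and ANXA4, ANXA9 and ANXA11 fell. Of all 16840 genes tested, 45.7% were called, 22.2% as higher and 23.5% as lower, beside 66.7% of the 9 members. The 9 members had a median log2 fold change of -0.01, against 0.01 for all genes. Overlap between groups was judged on TMM factors from the 4 libraries of each comparison. In 7 of the 9 the groups did not overlap, as in 73.3% of all genes. In the subline comparison 0 of the 9 passed in edgeR, where 7.14% of 17372 genes did, 3.87% as higher and 3.27% as lower. Of those 9, 5 had an unadjusted p under 0.05 (ANXA3, ANXA4, ANXA5, ANXA6 and ANXA10, the last of which passed the filter through its parental counts), as did 25.1% of all genes. DESeq2 called 1, ANXA6, and 7.18% of all genes with a count. The groups did not overlap in 6 of the 9, as in 59% of all genes, and the median log2 fold change was -0.24, against 0.01 for all genes. The rule used both contrasts, and these counts are given as a description.

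**Figure D1:**
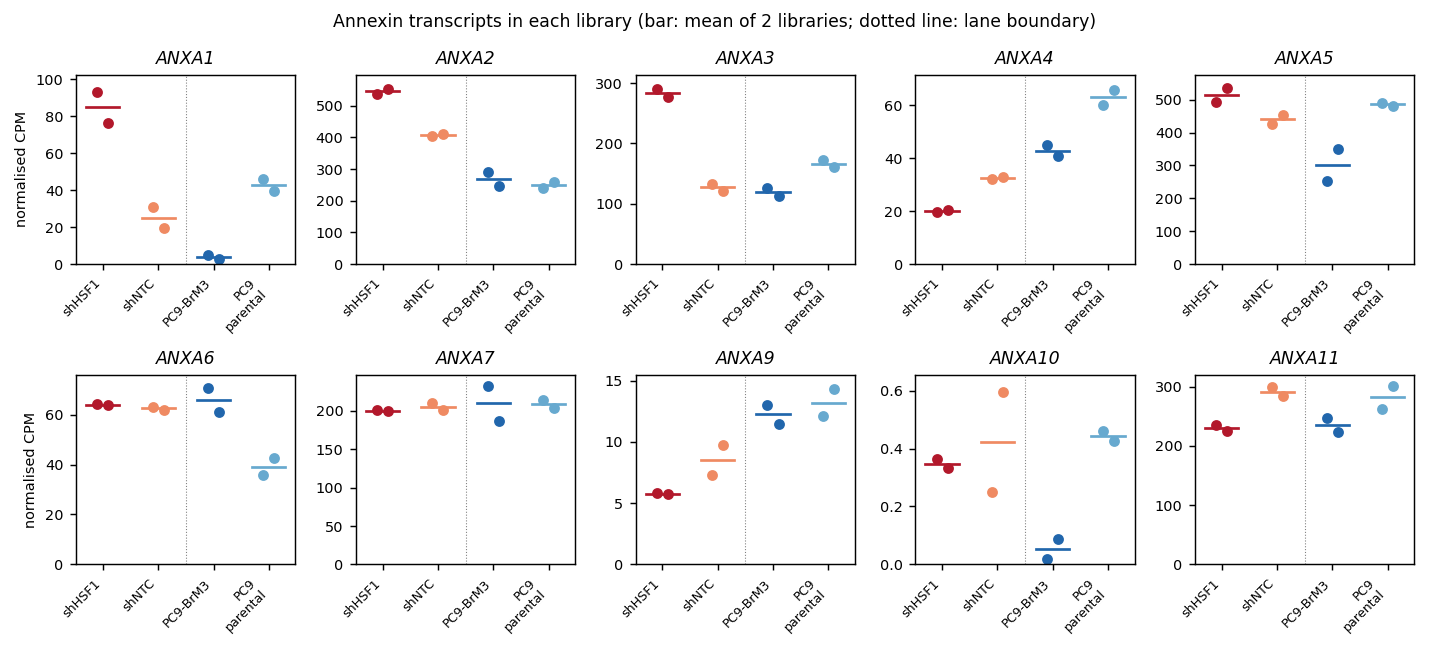
Normalised CPM (linear axes from 0) of each annexin in every library, with shHSF1, shNTC, PC9-BrM3 and PC9 parental from left to right, points for libraries and bars for the mean of 2. ANXA1 runs from 2.81 CPM in PC9-BrM3 to 93.2 CPM in shHSF1, while ANXA7 stays between 187 and 233 CPM; the dotted line parts the lanes.

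ANXA1 (chr9:75766673-75785309, plus strand, in GRCh37 like every gene position below), the glucocorticoid-linked ligand of formyl peptide receptors, had 93.2 and 76.5 CPM in shHSF1, against 30.7 and 19.6 CPM in shNTC. Both shHSF1 libraries were above both shNTC libraries, and the log2 fold change was 1.78 ± 0.23 (SE), or 3.42-fold. In PC9-BrM3 it had 4.69 and 2.81 CPM, against 46.2 and 39.3 CPM in PC9 parental, with raw counts of 249 and 95 against 2606 and 2038. The PC9-BrM3 libraries were the lowest of the 8, and the log2 fold change was -3.48 ± 0.29 (SE), or 11.1-fold lower. Its shNTC libraries lay further apart than its shHSF1 libraries in relative terms, and without shNTC replicate 1 or 2 the knockdown value was 2.13 or 1.503. Of the 16201 genes tested in both comparisons, 156 (0.963%) were called lower in PC9-BrM3 and higher in shHSF1. ANXA1 was chosen by these contrasts, and nothing is read from that share.

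The shNTC cells are PC9-BrM3 cells, yet ANXA1 averaged 25.2 ± 7.80 CPM in shNTC and 3.75 ± 1.33 CPM in PC9-BrM3 (SD, n = 2 each), a ratio of 6.70. ANXA10 had a ratio of 7.85 from few counts, 12 and 22 in shNTC against 1 and 3 in PC9-BrM3. Those PC9-BrM3 counts lie at or under the limit of 3 counts. The other 8 members had ratios between 0.696 and 1.52. The shHSF1 level of ANXA1 was 1.98 times that of PC9 parental, and the shNTC level 0.588 times. These ratios carry no test, since lane, transduction, puromycin and doxycycline cannot be told apart between these groups.

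ANXA2 (chr15:60639333-60695082, minus strand), which with S100A10 holds plasminogen at the cell surface, had 538 and 554 CPM in shHSF1, against 403 and 411 CPM in shNTC. Both shHSF1 libraries were above both shNTC libraries, and ANXA2 rose by 0.45 ± 0.06 on the log2 scale (SE; edgeR adjusted p = 0.000163). It had 289 and 247 CPM in PC9-BrM3, against 242 and 258 CPM in PC9 parental, and these groups overlapped (0.12 ± 0.15; adjusted p = 0.637). Its processed pseudogenes ANXA2P2, ANXA2P1 and ANXA2P3 match its transcript over their length at 98.43%, 93.84% and 92.15% of bases, so reads could be split among them. Their counts came to 0.384 to 0.879% of those of ANXA2, and with them added the knockdown value was 0.45 and the subline value 0.12. ANXA2P2 itself rose by 0.64 ± 0.19 in the knockdown (edgeR adjusted p = 0.0184), a value that may hold ANXA2 reads.

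ANXA3 (chr4:79472673-79531597, plus strand), a short-tailed member, moved most among the 9 in the knockdown. It had 290 and 278 CPM in shHSF1, against 133 and 121 CPM in shNTC. No library of one group came near the other, and ANXA3 rose 2.28-fold (log2 1.19 ± 0.06; edgeR adjusted p = 6.29e-07). In the subline comparison it had 126 and 113 CPM in PC9-BrM3, against 172 and 160 CPM in PC9 parental. Those pairs did not overlap, but the log2 fold change of -0.46 ± 0.15 did not pass (adjusted p = 0.129).

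ANXA5 (chr4:122589110-122618268, minus strand), the phosphatidylserine binder used to stain apoptotic cells, had 493 and 535 CPM in shHSF1, against 427 and 452 CPM in shNTC. The rise of 0.25 ± 0.07 on the log2 scale passed (edgeR adjusted p = 0.0123), and it did not pass in the fit of all 8 libraries (adjusted p = 0.356), without shNTC replicate 1 (0.0860) or without shHSF1 replicate 2 (0.0867). In PC9-BrM3 it had 253 and 351 CPM, against 490 and 482 CPM in PC9 parental. Both PC9-BrM3 libraries were below both parental ones but far apart from each other, and the log2 fold change of -0.66 ± 0.20 did not pass (adjusted p = 0.116).

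ANXA4 (chr2:69871557-70053596, plus strand), a short-tailed annexin found in epithelia, had a negative value in both comparisons. It had 19.8 and 20.5 CPM in shHSF1, against 32.0 and 32.9 CPM in shNTC, and 44.7 and 40.7 CPM in PC9-BrM3, against 59.9 and 65.8 CPM in PC9 parental. In both comparisons every library of the first group was below every library of the second. The knockdown difference of -0.66 ± 0.09 passed (edgeR adjusted p = 0.000181), and the subline difference of -0.53 ± 0.15 did not (adjusted p = 0.0934).

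ANXA6 (chr5:150480273-150537443, minus strand) is the largest member, with a coding length of 2019 bases against 960 to 1515 in the others. It had 64.1 and 63.9 CPM in shHSF1, against 63.2 and 62.0 CPM in shNTC, a log2 fold change of 0.06 ± 0.06 (edgeR adjusted p = 0.468). In PC9-BrM3 it had 70.5 and 61.1 CPM, against 35.7 and 42.7 CPM in PC9 parental. Both PC9-BrM3 libraries were higher, and ANXA6 had the largest positive subline value of the family, 0.77 ± 0.17, which just missed the threshold (adjusted p = 0.0512).

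ANXA7 (chr10:75134859-75173834, minus strand) and ANXA11 (chr10:81910645-81965328, minus strand) carry long tails that bind PDCD6. ANXA7, first described as a granule-fusing protein, had 201 and 200 CPM in shHSF1, against 210 and 201 CPM in shNTC, and 233 and 187 CPM in PC9-BrM3, against 214 and 204 CPM in PC9 parental. Its log2 fold changes were -0.01 ± 0.06 and 0.03 ± 0.16 (edgeR adjusted p = 0.925 and 0.923). Groups overlapped in both comparisons on TMM factors from the 4 libraries compared. On the levels printed, scaled over all 8 libraries, the knockdown groups did not overlap, by a small margin. ANXA11, which in neurons links RNA granules to lysosomes, had 236 and 225 CPM in shHSF1, against 299 and 284 CPM in shNTC. It fell by 0.31 on the log2 scale (SE 0.06; edgeR adjusted p = 0.0013), and in the fit of all 8 libraries the adjusted p was 0.0528. It had 246 and 223 CPM in PC9-BrM3, against 263 and 301 CPM in PC9 parental (-0.24 ± 0.15; adjusted p = 0.360).

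ANXA9 and ANXA10 are the atypical members, whose cores have lost most calcium-binding residues. ANXA9 (chr1:150954493-150968110, plus strand) had 5.82 and 5.71 CPM in shHSF1, against 7.33 and 9.73 CPM in shNTC, and 13.0 and 11.5 CPM in PC9-BrM3, against 12.1 and 14.3 CPM in PC9 parental. The first pair of groups did not overlap and the second did. ANXA9 fell by 0.53 in the knockdown (SE 0.16; edgeR adjusted p = 0.0212). That call was lost in the fit of all 8 libraries (adjusted p = 0.0673), without shNTC replicate 2 (0.182, at -0.31) and without either shHSF1 library (0.0715 and 0.0654).

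ANXA10 (chr4:169013666-169108841, plus strand), a member known from stomach and urothelium, had few counts in any library. There were 14 and 12 in shHSF1, against 12 and 22 in shNTC, and 1 and 3 in PC9-BrM3, against 26 and 22 in PC9 parental. Scaled by total counts, without TMM factors, the PC9-BrM3 level was 0.0988 times that of PC9 parental from 4 against 48 counts. Its exact 95% interval of 0.0259 to 0.270, on the same scale, covers counting error only. The edgeR value of -3.14 ± 0.67 just missed the threshold (adjusted p = 0.0514), and ANXA10 entered that test through its parental counts. Without PC9-BrM3 replicate 1 the value was -2.25, and without replicate 2 it was -4.40. In the knockdown it was -0.20 ± 0.49 (adjusted p = 0.770) with overlapping groups.

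**Figure D2:**
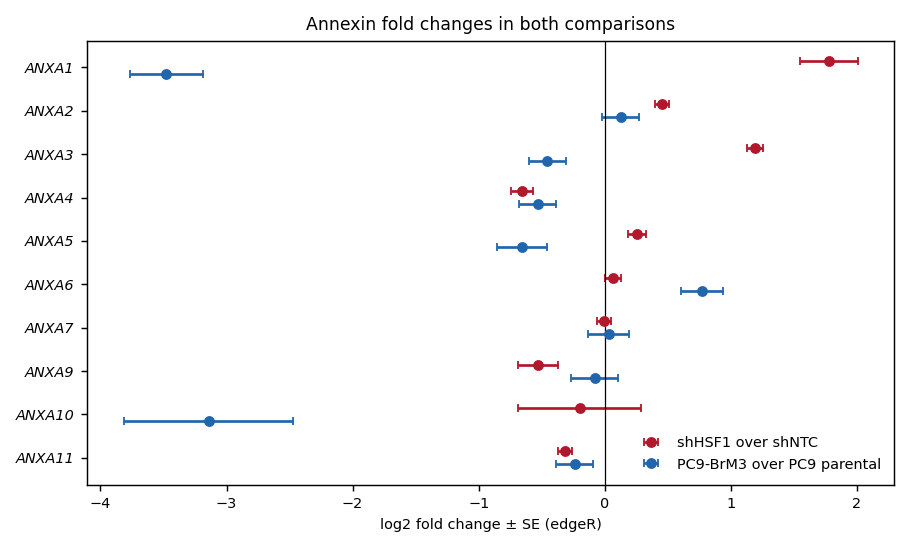
Log2 fold changes from edgeR with bars of 1 SE on each side, for shHSF1 over shNTC and for PC9-BrM3 over PC9 parental, with members from ANXA1 at the top to ANXA11. ANXA1 lies at 1.78 and -3.48, ANXA3 and ANXA5 also have opposite signs, and ANXA4 is below 0 in both.

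Of the 10 members, ANXA1, ANXA3 and ANXA5 had a positive value in the knockdown and a negative one in the subline comparison. A test of the difference between the comparisons was not run, since they sit on separate lanes. Each lane was centred on its mean log2 CPM. Over the 8 libraries, the ranked member most like ANXA1 was ANXA5 (Pearson r 0.81), then ANXA3 (0.76). ANXA6 had an r of -0.80, though its knockdown value of 0.06 had the same sign as that of ANXA1. Among 11090 genes tested in both comparisons with a mean of at least 5 CPM, ANXA5 ranked 979. ANXA10, with a mean under 5 CPM, was not ranked. The 5 genes most like ANXA1 were GPD2 (0.998), CIAO1 (0.994), SESN2 (0.994), MET (0.992) and LPCAT2 (0.992). GPD2 is a mitochondrial glycerol phosphate dehydrogenase, CIAO1 serves iron-sulfur protein assembly, SESN2 is a stress-induced sestrin, MET is the receptor of hepatocyte growth factor and LPCAT2 makes platelet-activating factor. Their log2 fold changes ran from 0.28 (GPD2) to 0.82 (LPCAT2) in the knockdown and from -1.53 (LPCAT2) to -0.46 (GPD2) in the subline comparison. The points share libraries, lanes and depth, and r is a description over 8 values. With each lane centred, those values mostly hold the 2 contrasts that chose ANXA1. A gene that rises in the knockdown and falls in the subline comparison can therefore have a high r, and shared regulation was not tested.

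Per kilobase of exon, ANXA5 stood highest in every group, at 169 ± 9.8 CPM in shHSF1, 145 ± 5.83 in shNTC, 99.7 ± 22.9 in PC9-BrM3 and 160 ± 1.88 in PC9 parental (SD, n = 2 each). ANXA10 stood lowest in every group, at 0.192, 0.233, 0.0297 and 0.244 CPM per kilobase in that order of groups. ANXA1 took sixth place in shHSF1 (18.6 CPM per kilobase), seventh in shNTC (5.52), ninth in PC9-BrM3 (0.823) and sixth in PC9 parental (9.38). In shNTC its 2 libraries overlapped those of ANXA9, which had 4.67. In PC9-BrM3 the libraries of ANXA2 (30.4) and ANXA11 (26.8) overlapped, and in PC9 parental those of ANXA3 (32.5) and ANXA11 (32.2), of ANXA9 (7.23) and ANXA6 (7.22), and of ANXA6 and ANXA4 (6.32). The order rests on the length used. The exons of ANXA2 in the count tables cover 8822 bases while its principal transcript has 1435, and per kilobase of principal transcript ANXA2 led in shHSF1 (380 CPM, ANXA5 292), shNTC (284, ANXA5 250) and PC9-BrM3 (187, ANXA5 172), where their libraries overlapped, and ANXA5 led in PC9 parental (276, ANXA2 174).

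The 10 members together held 0.204 to 0.211% of counts in shHSF1, against 0.162 to 0.163% in shNTC, and 0.105 to 0.131% in PC9-BrM3, against 0.153 to 0.156% in PC9 parental. Summed normalised levels were 1941 and 1958 CPM in shHSF1, against 1607 and 1595 CPM in shNTC, and 1281 and 1237 CPM in PC9-BrM3, against 1535 and 1568 CPM in PC9 parental. In CPM, ANXA3 and ANXA2 differed most between shHSF1 and shNTC, and ANXA5 most between PC9-BrM3 and PC9 parental. ANXA1 gave 3.91 to 4.80% of annexin counts in shHSF1, against 1.23 to 1.91% in shNTC, and 0.227 to 0.366% in PC9-BrM3, against 2.51 to 3.01% in PC9 parental.

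**Figure D3:**
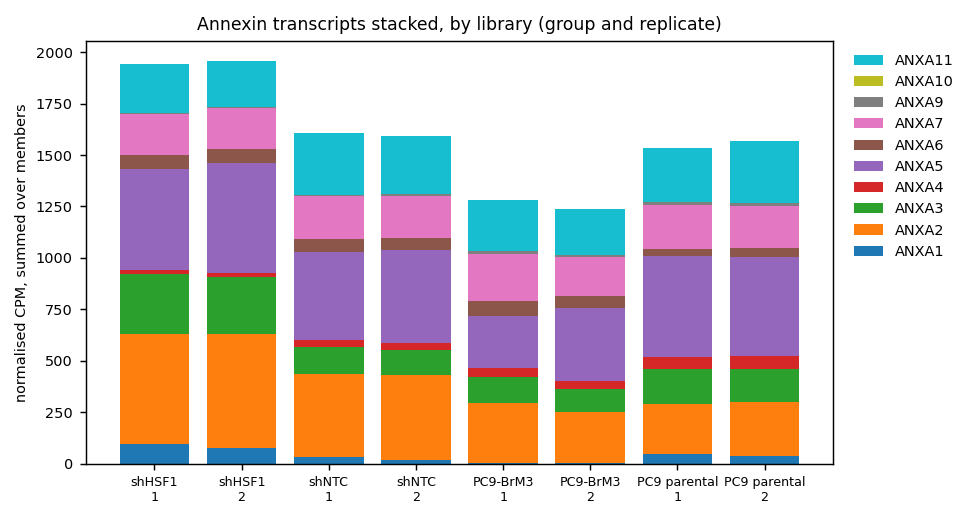
Summed normalised CPM of the 10 annexins in each library, stacked by member from ANXA1 at the bottom to ANXA11 at the top, in the order shHSF1, shNTC, PC9-BrM3 and PC9 parental with replicates 1 and 2. The stacks reach 1941 and 1958 CPM in shHSF1, 1607 and 1595 CPM in shNTC, 1281 and 1237 CPM in PC9-BrM3 and 1535 and 1568 CPM in PC9 parental.

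Outside the members, ANXA13 had 0 or 1 count per library and ANXA8 and ANXA8L1 had 0 counts at IDs on a patch scaffold, so no level is given for them. ANXA2R, a receptor for ANXA2, had 0.623 and 0.579 CPM in shHSF1, against 0.878 and 0.892 CPM in shNTC (-0.52 ± 0.30; edgeR adjusted p = 0.181). In PC9-BrM3 it had 0.810 and 0.474 CPM, against 1.19 and 1.25 CPM in PC9 parental (-0.88 ± 0.37; adjusted p = 0.209).

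Genes that work with annexins were grouped in 6 lists, whose counts stand beside calls for 45.7% of all genes after knockdown and 7.14% between subline and parent, with medians of 0.01 over all genes in both. Of 33 list genes named by rule for the knockdown, 14 lost their call in the fit of all 8 libraries, among them S100A10, S100A4, S100A6, SRI, TSC22D3, EHD2 and AHNAK, and 6 lost it with 1 library left out. Of 17 named for the subline comparison, 15 lost their call without 1 or the other PC9 parental library, and KLF9 and SERPINE2 kept theirs. Of the EF-hand partners, 3 of 7 tested rose and 2 fell in the knockdown (median 0.04), and 0 of 8 were called in the subline comparison (median -0.10). S100A10, the partner of ANXA2, had 324 and 337 CPM in shHSF1, against 298 and 250 CPM in shNTC, and rose by 0.30 ± 0.08 (edgeR adjusted p = 0.0113); without shNTC replicate 2 or shHSF1 replicate 2 the adjusted p was 0.0869 or 0.0547. PDCD6 rose by 0.42 ± 0.07 (adjusted p = 0.00123) and sorcin (SRI) by 0.32 ± 0.06 (0.00206). S100A6, which binds ANXA11, fell by 0.33 (adjusted p = 0.00159), and S100A4 fell by 0.88 (0.00143). S100A4 had 109 and 25.8 CPM in the PC9-BrM3 pair, against 48.7 and 47.7 CPM in PC9 parental, so its PC9-BrM3 libraries lay on both sides of the parental ones. S100A11, the partner of ANXA1, had a knockdown value of -0.02 ± 0.06 (adjusted p = 0.813).

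Formyl peptide receptors, which ANXA1 peptides bind, were at or near the limit. FPR1, FPR2 and FPR3 had at most 0.138 CPM in any library and were not tested. That highest value was 5 counts of FPR2 in shHSF1 replicate 2. Of that list and the lipid mediator enzymes, 2 of 8 tested rose and 2 fell in the knockdown (median -0.17). In the subline comparison 1 of 7 rose and 2 fell (median -0.52). PLA2G4C, 1 of the 2 that rose in the knockdown, had 26 and 20 counts in shHSF1, against 6 and 7 in shNTC. It passed the filter through its shHSF1 counts. ALOX5, which starts leukotriene synthesis, rose by 0.43 ± 0.08 (edgeR adjusted p = 0.00181) and PTGES, a prostaglandin E synthase, fell by 0.58 (0.000226). In the subline comparison ALOX15, a lipoxygenase, had 5.52 and 5.12 CPM in PC9-BrM3, against 1.22 and 1.31 CPM in PC9 parental, and rose by 2.09 ± 0.24 (adjusted p = 0.0105). PLA2G4A, the cytosolic phospholipase A2, had 0.0754 and 0 CPM in PC9-BrM3, against 0.567 and 0.714 CPM in PC9 parental, from 4 and 0 counts against 32 and 37. It and ALOX5AP, with 4 and 1 counts in PC9-BrM3 against 21 and 22 in PC9 parental, are the 2 that fell, and both passed the filter through their parental counts.

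Glucocorticoid targets were listed because ANXA1 is one of them, and the list also holds the receptor gene NR3C1. In the knockdown 9 of 16 tested rose, NR3C1 among them, and 5 fell (median 0.33). In the subline comparison 4 of 15 rose and 4 fell (median -0.12). NR3C1, the glucocorticoid receptor, had 109 and 104 CPM in shHSF1, against 72.7 and 72.9 CPM in shNTC, and rose by 0.58 ± 0.06 in the knockdown (edgeR adjusted p = 4.92e-05). The textbook targets split. DUSP1, a phosphatase, had 61.0 and 58.2 CPM in shHSF1, against 5.77 and 6.05 CPM in shNTC (3.37 ± 0.09; edgeR adjusted p = 2.66e-08), while FKBP5, a co-chaperone of the receptor, had 1.90 and 2.04 CPM in shHSF1, against 20.8 and 21.4 CPM in shNTC (-3.39 ± 0.13; adjusted p = 1.10e-07). TSC22D3, which encodes GILZ, fell by 0.59 (0.000495) and SGK1, a kinase, rose by 1.26 ± 0.09 (3.96e-06). In the subline comparison SGK1 (1.25 ± 0.16), DUSP1 (1.37 ± 0.23) and FKBP5 (1.13 ± 0.20) rose, while KLF9 (-2.30 ± 0.21), MT2A (-1.79 ± 0.26) and TIPARP (-0.97 ± 0.14) fell, with adjusted p between 0.00580 and 0.0308.

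In the plasmin system, 6 of 10 tested rose and 3 fell in the knockdown (median 0.50), and 0 of 9 rose and 3 fell in the subline comparison (median -0.12). PLAT, tissue plasminogen activator, had 79.3 and 100 CPM in shHSF1, against 456 and 486 CPM in shNTC, and fell by 2.36 (SE 0.12; edgeR adjusted p = 5.21e-06). PLAUR, the urokinase receptor, rose by 1.13 ± 0.10 (adjusted p = 1.96e-05). In PC9-BrM3 SERPINE2, another protease inhibitor, had 29.1 and 40.4 CPM, against 394 and 385 CPM in PC9 parental, and fell by 3.46 (SE 0.22; adjusted p = 0.00299). PLAU, urokinase, fell by 1.13 (adjusted p = 0.0313). Plasminogen itself, PLG, had 0 counts in all 8 libraries.

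Among membrane repair genes 8 of 22 tested rose and 4 fell in the knockdown (median 0.10), and 1 of 22 rose and 1 fell in the subline comparison (median 0.08). AHNAK2, a giant scaffold, had 42.2 and 32.6 CPM in shHSF1, against 5.43 and 4.97 CPM in shNTC, and rose by 2.87 ± 0.13 (edgeR adjusted p = 3.21e-07). The caveolar genes CAVIN1 (1.39 ± 0.07) and CAV1 (0.53 ± 0.06) rose in the knockdown (5.46e-07 and 4.79e-05), and in the subline comparison CAVIN1 rose by 1.02 ± 0.19 (0.0374) and CAV1 fell by 0.74 (0.0372). EHD2 fell by 0.95 (0.00120) and AHNAK, a partner of ANXA2 and S100A10, by 0.25 (0.00576) in the knockdown.

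Of genes that set phosphatidylserine exposure, the surface that ANXA5 binds, 4 of 14 tested rose and 5 fell in the knockdown (median -0.01), and 2 of 15 rose and 1 fell in the subline comparison (median -0.10). TMEM30A, the chaperone of the flippases that pull the lipid inwards, had 51.6 and 50.2 CPM in shHSF1, against 219 and 222 CPM in shNTC, and fell by 2.08 (SE 0.06; edgeR adjusted p = 2.66e-08). The flippase ATP11B fell by 0.63 (2.44e-05) and the scramblase XKR8 rose by 0.67 ± 0.15 (0.00439). In PC9-BrM3 the scramblase ANO6 had 586 and 626 CPM, against 339 and 355 CPM in PC9 parental, and rose by 0.83 ± 0.14 (adjusted p = 0.0293), and the flippase ATP11A rose by 1.00 ± 0.14 (0.0180).

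**Figure D4:**
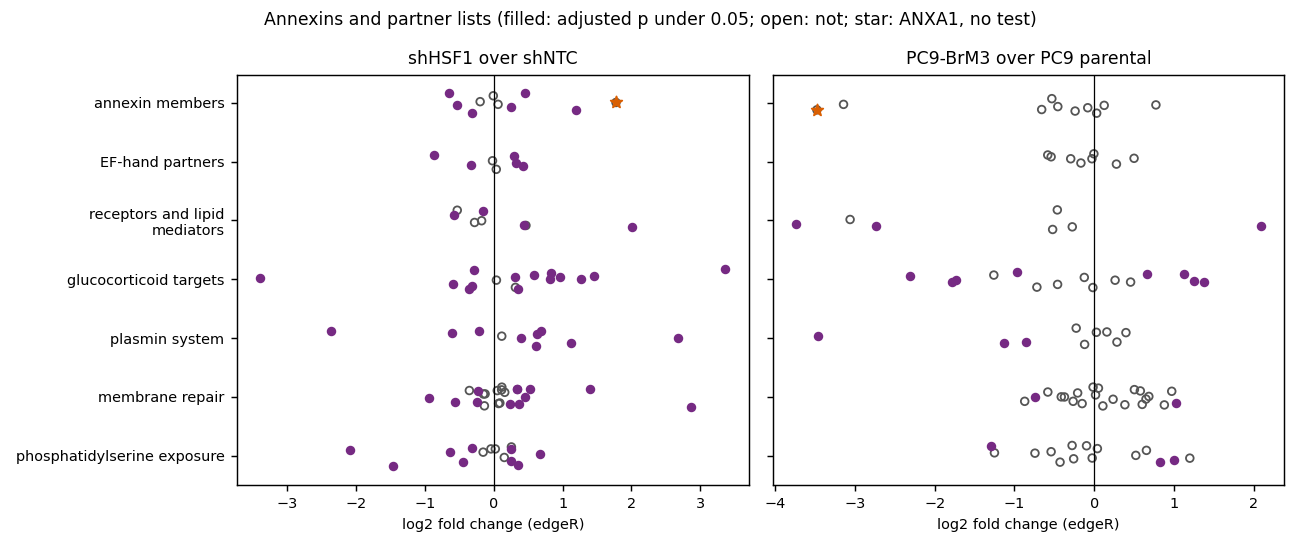
Log2 fold changes from edgeR of the annexins and of the genes of 6 partner lists, 1 point per tested gene, filled where the adjusted p was under 0.05, with ANXA1 as a star without a test. The left panel holds shHSF1 over shNTC and the right panel PC9-BrM3 over PC9 parental, where 0 of 9 annexins other than ANXA1 are filled.

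Without a PC9-BrM3 library the subline calls of the annexins changed. ANXA6 was called higher without either one (0.68 and 0.85; edgeR adjusted p = 4.64e-05 and 1.10e-05), and ANXA3, ANXA4 and ANXA5 were called lower without either one, with ANXA11 as well without replicate 1. ANXA10 is left out of these counts, since it passed the filter through its parental counts. In the same fits 51.1% and 30.8% of all genes were called. Without either PC9 parental library, 0 of the 9 were called.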

How the data were processed

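RNA was measured in 8 libraries of PC9-derived cells, grouped by the sample titles. The deposited tables hold raw counts of reads, which the authors made with featureCounts 1.6.1 over exons grouped by gene ID, reverse-stranded, on Ensembl GRCh37, per the file headers. Trim Galore, HISAT2 and DESeq2 are named per the submitters' processing notes, and the role of DESeq2 is not given in the sources used here. Counting by strand separates genes on opposite strands, and reads shared by near-identical copies can be lost. Totals were 33550140 to 56715336 counts, and intervals and limits cover counting error only.

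Symbols were matched for 52526 of 63677 gene IDs (82.5%). Each comparison was fitted on its own 4 libraries over all genes in edgeR 4.0.16 (R 4.3.3): filterByExpr with a minimum count of 10 and a minimum total of 15, TMM factors, the robust quasi-likelihood F test and Benjamini-Hochberg adjustment over all genes tested, with a threshold of 0.05. The SE of a log2 fold change was worked out as its absolute value divided by the square root of the F statistic. That of ANXA1 was formed in the same way. All 10 members passed the filter in both comparisons. The test was tried before use on simulated data in which both groups had the same spread. The PC9-BrM3 and PC9 parental pairs differ in spread, so that trial does not bear on the subline calls. Alternatives used DESeq2 1.42.0, other factors, no filter, all 8 libraries, a replicate block, robust=FALSE and each library left out. Levels per length used the exon length in the files, and the principal GENCODE v29 transcript was added as an alternative after seeing the data.

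The members, the partner lists (written from textbook knowledge) and the rules were chosen with earlier results of these data known, so none is independent support. Named genes were every member, other annexin genes where reads may be shared, HSF1, up to 3 called genes per list and direction with the smallest p, and the 5 genes most like ANXA1. NR3C1, S100A11, the receptors FPR1 to FPR3, PLG and the marker genes were named outside that rule. Some genes that the rule picks are not reported here. Promoter windows came from RefSeq (GRCh38.p14), by symbol, for all 10 members, and gene positions from the files (GRCh37); positions count from 1. ANXA2 pseudogene identity came from aligning GENCODE v29 transcripts. Amino acid sequences were not used here.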

Additional observations from a re-analysis of the deposited data

How the results depend on the processing

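The knockdown count of 7701 genes was 3873 in the fit of all 8 libraries and 6044 to 6514 with 1 library left out. The subline count of 1240 was 2147 in DESeq2, 3159 without a filter, 3813 in the fit of all 8 libraries, and 402 to 9228 with 1 library left out. Upper-quartile factors gave 4592 higher and 3387 lower knockdown calls, against 3739 and 3962 with TMM. The 9 annexins other than ANXA1 had 3 higher and 3 lower knockdown calls. These became 2 and 1 in the fit of all 8 libraries, where 9.04% and 12.3% of all genes were called. The subline counts of 0 became 1 higher in DESeq2, without a filter, with robust=FALSE and in the fit of all 8 libraries. In the same 4 fits, in that order, 3.9%, 5.55%, 3.91% and 11% of all genes were called higher. The lower count became 3 without a filter (5.01% of all genes called lower), 4 in the fit of all 8 libraries (10.1%), 1 with robust=FALSE (3.33%) and 0 to 5 with 1 library left out (1.22 to 25.1%). ANXA10, which passed the filter through its parental counts, is in each lower count above 0.

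With the replicate number as a block, 8015 knockdown and 1328 subline genes were called, and 1 annexin, ANXA10, was called lower in the subline comparison (3.52% of all genes), while CAV1 and ALOX5AP lost their subline calls (edgeR adjusted p = 0.0582 and 0.0532). The deviations of same-numbered libraries had a correlation of 0.01 over genes in both comparisons, so no shared deviation was seen over all genes. This cannot exclude pairing for single genes, and the labels do not say whether a number marks a shared day or batch.

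The following log2 fold changes turned sign, each in a comparison where the gene was not called. In the knockdown comparison ANXA7 was 0.0598 with upper-quartile factors and ran from -0.0324 to 0.0109 with 1 library left out, and ANXA10 from -0.751 to 0.501. In the subline comparison ANXA7 ran from -0.124 to 0.155 and ANXA9 from -0.211 to 0.0262 with 1 library left out. Over all alternatives the knockdown value of ANXA1 lay between 1.503 and 2.13, and its subline value between -3.89 and -3.19. The partner genes were tried in the comparison that named them. The cause of these changes was not tested; leaving out a PC9-BrM3 library removes the spread of that pair from the fit.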
